A study of Mus musculus with 4 samples.

Results

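The 10 genes described here encode RNA-binding proteins that choose among exons of muscle transcripts: Rbfox1, Rbfox2, Mbnl1, Mbnl2, Mbnl3, Celf1, Celf2, Ptbp1, Rbm24 and Rbm20. They were taken by symbol, though with earlier results of these data known, and each had a row of its own among the 24011 genes measured. Expression was measured in primary myoblasts that had been cultured from limb muscles of Rspo1-null mice (2 arrays) and of wild-type mice (2 arrays), both on a C57bl6N/sv129 background. The null allele (spelled Rpos1-null in the labels) is present in every cell of the animal and the 2 arrays of a genotype come from independent cultures. All cultures were grown with bFGF for 5 passages and then kept for 24 h in medium with 2% horse serum, so the cells were differentiating myocytes at an early stage. The paper's control animals include heterozygous mice where the labels name wild-type mice.

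Alternative splicing gives muscle cells their own isoforms of contractile, calcium-handling and cytoskeletal proteins. Muscleblind-like (Mbnl) proteins promote the isoforms of mature muscle and are sequestered in myotonic dystrophy, while CUGBP and Elav-like family (Celf) proteins favor many fetal isoforms. Ptbp1, the polypyrimidine tract-binding protein, represses tissue-specific exons in precursor cells. Rbfox proteins bind GCAUG elements around exons, and Rbm24 and Rbm20 are needed for isoforms of sarcomere genes such as titin. Exon use was not measured, since the deposited table holds 1 value for each gene.

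The values are log2 expression, on which a difference of 1 is a 2-fold change. Background was set at 4.69, the 95th percentile of the mean levels of 1370 receptor genes for odorants and pheromones, and genes whose mean was under it in each genotype were termed dim. Rspo1, the targeted gene, had 5.29 and 5.33 in the Rspo1-null arrays 1 and 2, against 5.71 and 5.84 in the wild-type arrays 1 and 2, so a signal above background was left. The position of its probes relative to the deleted sequence is unknown here, and these values check the labels only in part. Xist, the RNA of the inactive X chromosome, had 10.38 in Rspo1-null array 1 and 10.39 in wild-type array 2 and at most 4.35 in the others, where the Y-linked gene Eif2s3y had 8.51 (Rspo1-null array 2) and 8.19 (wild-type array 1). Each genotype thus held 1 array with Xist and 1 with Y-linked transcripts. The myogenic markers Des, Myod1 and Myog were above background in all 4 arrays. The markers Pdgfra, Dcn and Lum of fibroblasts, Pecam1 and Cdh5 of endothelial cells, Ptprc of leukocytes and Adipoq of adipocytes were below background in all 4. Dim were 4 of 6 fibroblast, 5 of 5 endothelial, 4 of 5 leukocyte, 3 of 4 adipocyte, 2 of 4 Schwann and neural, and 2 of 4 smooth muscle and pericyte markers. Of the rest, Col1a1 and Thy1 (fibroblasts), Cd68 (leukocytes), Tubb3 and Rbfox3 (neural) and Cspg4 (pericytes) were above background in all 4 arrays. Pparg (adipocytes) and Rgs5 (pericytes) were above it in some. Col1a1 (5.16), Thy1 (6.27), Tubb3 (9.16) and Rgs5 (6.65) were highest in Rspo1-null array 1, the others in other arrays. The source of these signals was not tested. The macrophage marker Adgre1, itself dim, had 3.62 and 3.36 in the Rspo1-null arrays, against 3.97 and 3.99 in the wild-type arrays, and its unadjusted p = 0.032 from limma was the only one of these markers under 0.05. In limma 0 of the 24011 genes passed an adjusted p of 0.05 and 760 passed an unadjusted one, with 288 of them higher in Rspo1-null cells and 472 lower. The split was 435 and 317 after median centring and 346 and 337 after cyclic loess.

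Between the genotypes, Ptbp1 and Mbnl2 were the 2 splicing regulators past an unadjusted p of 0.05, each with the higher level in Rspo1-null cells, and 0 of the 10 passed an adjusted p of 0.05 in limma. Among all genes 3.17% passed the unadjusted threshold, 1.2% as higher and 1.97% as lower in Rspo1-null cells. Among the 12272 genes above background the shares were 3.67% in either direction and 1.8% higher. They were also the 2 regulators whose groups did not overlap, and 31.2% of all genes did not overlap between the groups (12.1% with the Rspo1-null arrays higher, 19.1% with them lower, and 15.8% higher among genes above background). By their means, 7 of the 10 regulators were on the higher side in Rspo1-null cells and 3 on the lower. Of all 24011 genes, 10768 were on the higher side. Of the 9 regulators above background 7 were on the higher side, against 55.8% of the genes above background. The median of the log2 differences (Rspo1-null minus wild-type) was 0.09 for the 10 regulators, against -0.03 for all genes, and 0.11 for the 9 above background, against 0.03 for all genes above background. Without Rspo1-null array 1 the median of the 10 was 0.34, without Rspo1-null array 2 -0.13, without wild-type array 1 0.27 and without wild-type array 2 -0.019.

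**Figure D1:**
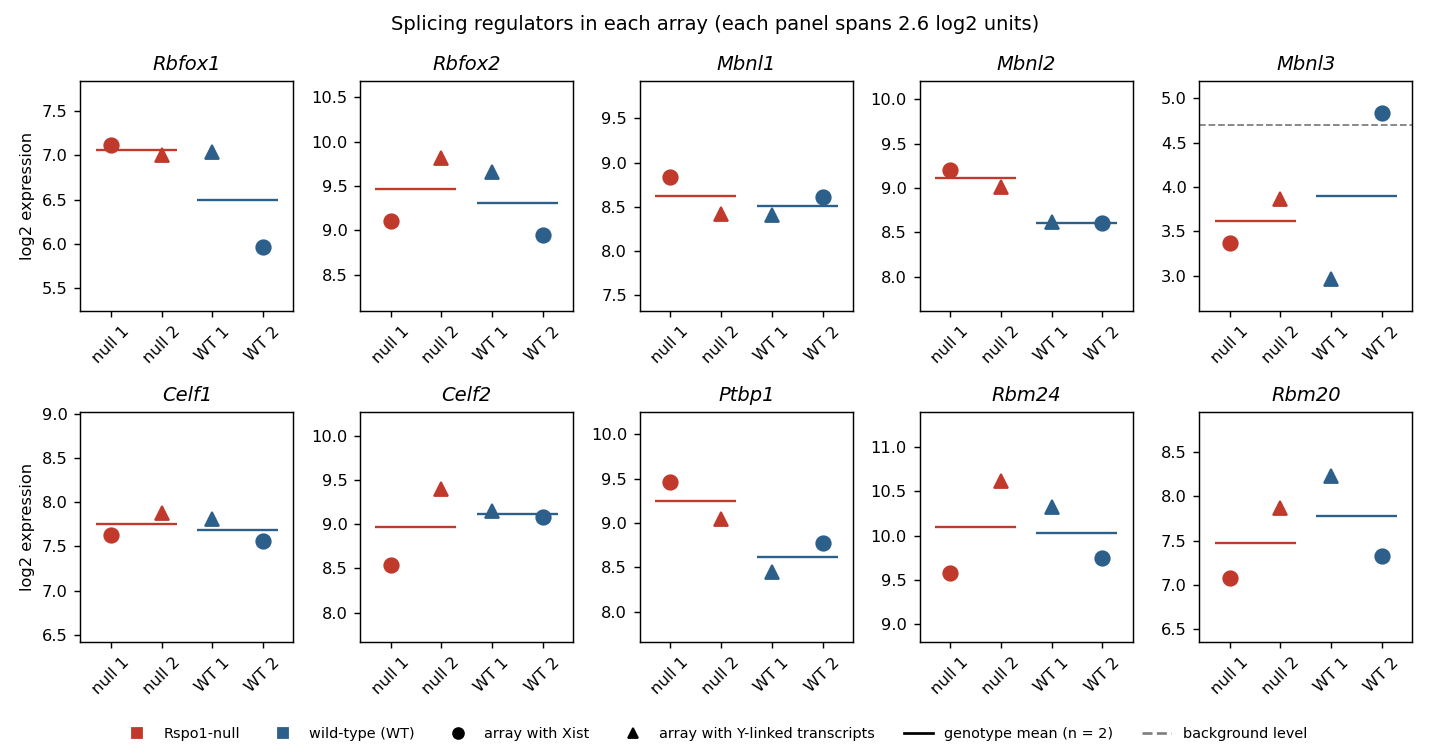
Log2 expression of the 10 splicing regulators in each array, with Rspo1-null arrays in red and wild-type (WT) arrays in blue, horizontal lines at the mean of 2 arrays, circles for arrays with Xist and triangles for arrays with Y-linked transcripts. Both Rspo1-null arrays lie above both wild-type arrays for Ptbp1 and Mbnl2 only, and 3 of 4 values of Mbnl3 lie below the background level of 4.69 (dashed line).

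For 3 regulators the 250 bases before the start site are shown, from RefSeq on GRCm38.p6, all on the plus strand. Ptbp1 and Mbnl2 passed the unadjusted threshold, and Rbm24 was among the regulators that were lower in both arrays with Xist. No promoter was found for Rbm20, which differed more between those array pairs than Rbm24, or for Rbfox2. Capitals mark E-boxes (CANNTG, the general form of the element that MyoD family factors bind). They also mark the core of TCF/LEF elements (CTTTGA, bound by the partners of β-catenin). Both were searched on both strands, and no match overlapped another.
Ptbp1, chr10:79854182-79854431: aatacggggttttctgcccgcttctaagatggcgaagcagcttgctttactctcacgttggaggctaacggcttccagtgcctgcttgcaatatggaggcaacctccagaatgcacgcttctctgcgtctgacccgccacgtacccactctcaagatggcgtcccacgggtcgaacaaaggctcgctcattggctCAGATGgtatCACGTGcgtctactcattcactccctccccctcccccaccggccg
Mbnl2, chr14:120275419-120275668: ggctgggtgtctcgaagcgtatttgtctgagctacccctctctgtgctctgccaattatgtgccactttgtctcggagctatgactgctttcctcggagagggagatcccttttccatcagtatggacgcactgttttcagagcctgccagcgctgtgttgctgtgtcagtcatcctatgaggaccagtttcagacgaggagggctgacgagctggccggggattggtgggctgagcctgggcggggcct
Rbm24, chr13:46418050-46418299: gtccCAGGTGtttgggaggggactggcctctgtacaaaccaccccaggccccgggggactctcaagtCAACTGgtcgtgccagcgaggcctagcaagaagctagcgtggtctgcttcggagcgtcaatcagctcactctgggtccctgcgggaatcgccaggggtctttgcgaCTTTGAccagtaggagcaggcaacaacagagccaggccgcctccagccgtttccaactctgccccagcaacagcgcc
The windows of Ptbp1 and Rbm24 held 2 E-boxes each and that of Mbnl2 held 0. The narrower MyoD-type E-box (CAGCTG) was found 0 times in these 3 windows, and 13% of all windows held it. Of all 32851 promoter windows of this length 66.2% held at least 1 E-box and 13.8% the TCF/LEF core, which Rbm24 held once. RefSeq promoters were found for 8 of the 10 regulators, with 14 windows in all, of which 8 held an E-box. Outside the 3 windows shown, 1 window of Rbfox1 held the MyoD-type E-box and the other window of Rbfox1 held the TCF/LEF core. Some regulators had several windows, and 2 windows of Celf2 overlap and hold the same E-boxes. A match is a run of letters and not a site of binding.

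Ptbp1 had log2 values of 9.46 and 9.04 in the Rspo1-null arrays 1 and 2, against 8.45 and 8.78 in the wild-type arrays 1 and 2. The lowest Rspo1-null value lay above the highest wild-type value. The difference was 0.64, a 1.56-fold higher level (95% confidence interval of the log2 difference 0.05 to 1.22, adjusted p = 0.999 from limma, unadjusted p = 0.0387). The difference was 0.68 between the arrays that held Xist and 0.59 between those that held Y-linked transcripts. The unadjusted call was lost without Rspo1-null array 1 (0.43, unadjusted p = 0.174 from limma) and without wild-type array 1 (0.47, unadjusted p = 0.159 from limma). It was lost too with the replicate number as a block (unadjusted p = 0.0871 from limma), with cyclic loess (0.0528), without the dim genes (0.0503) and in the methods' one-way comparison (0.138). Its difference was larger in size than that of 96.1% of the 12272 genes that were not dim.

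Mbnl2 had 9.21 and 9.01 in the Rspo1-null arrays 1 and 2, against 8.61 in both wild-type arrays. The wild-type arrays differed by less than 0.01, and both Rspo1-null arrays lay above them. The difference was 0.50, a 1.41-fold higher level (95% confidence interval 0.09 to 0.90, adjusted p = 0.999 from limma, unadjusted p = 0.0258). Within the arrays with Xist it was 0.60 and within the others 0.40. Each fit that leaves out 1 array sets a single array against 2, so that its spread within a genotype comes from 1 pair and the lone array is assumed to vary alike. Leaving out any 1 array kept the difference between 0.40 and 0.60 but ended the unadjusted call, with unadjusted limma p-values of 0.136 without Rspo1-null array 1, 0.0505 without Rspo1-null array 2, 0.0758 without wild-type array 1 and 0.0785 without wild-type array 2. The replicate block ended it as well (unadjusted p = 0.0598 from limma). With the array pairs of like sex-linked transcripts as a block, Ptbp1 and Mbnl2 both passed the unadjusted threshold, which 5.35% of all genes then did.

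The other muscleblind-like genes behaved in different ways. Mbnl1, the main family member of adult skeletal muscle, had 8.83 and 8.42 in the Rspo1-null arrays 1 and 2, against 8.41 and 8.61 in the wild-type arrays 1 and 2. The groups overlapped, and the difference was 0.11 (95% confidence interval -0.43 to 0.66), with a value of -0.095 without Rspo1-null array 1. Mbnl3, an X-linked gene whose protein is known to hold back muscle differentiation in mouse cells, was dim. It had 3.37 and 3.87 in the Rspo1-null arrays 1 and 2, against 2.96 and 4.83 in the wild-type arrays 1 and 2. Only wild-type array 2 exceeded the background level, so no fold change is given. Rspo1-null array 1 and wild-type array 2, both with Xist, held 3.37 and 4.83, so Mbnl3 did not part the arrays by their sex-linked transcripts.

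Of the Celf genes, Celf1 varied little. It had 7.63 and 7.88 in the Rspo1-null arrays 1 and 2, against 7.81 and 7.56 in the wild-type arrays 1 and 2. The groups overlapped, and its range of 0.313 over the 4 arrays was the smallest among the 10 genes. The difference was 0.07 (95% confidence interval -0.41 to 0.54), with -0.055 without Rspo1-null array 2 and -0.059 without wild-type array 2. Celf2 had 8.54 and 9.39 in the Rspo1-null arrays 1 and 2, against 9.14 and 9.08 in the wild-type arrays 1 and 2. Both extremes were Rspo1-null arrays, and the wild-type arrays lay close together (9.11 ± 0.04, SD, n = 2). The difference was -0.15 (95% confidence interval -0.97 to 0.68), and 0.28 without Rspo1-null array 1. Celf2 is also abundant in leukocytes. Of the 5 leukocyte markers, Ptprc, Adgre1, Csf1r and Cd3e were dim, whereas Cd68 was above background with 5.81 and 5.69 in the Rspo1-null arrays 1 and 2, against 6.08 and 5.79 in the wild-type arrays 1 and 2. The part of such cells in the level of Celf2 was not tested.

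Rbfox1 had 7.12 and 7.00 in the Rspo1-null arrays 1 and 2, against 7.04 and 5.96 in the wild-type arrays 1 and 2. Wild-type array 2 stood below the other 3 arrays, and the groups overlapped. The difference of 0.56 (95% confidence interval -0.44 to 1.57, adjusted p = 0.999 from limma, unadjusted p = 0.207) rested on that array and was 0.02 without it. Without wild-type array 1 it was 1.10 (unadjusted p = 0.00654 from limma), where wild-type array 2 alone stood for its genotype and the spread came from the Rspo1-null pair. The difference was 1.16 between the arrays that held Xist and -0.037 between those that held Y-linked transcripts. Rbfox2, which is expressed in many tissues, had 9.11 and 9.82 in the Rspo1-null arrays 1 and 2, against 9.66 and 8.95 in the wild-type arrays 1 and 2. Each genotype held 1 high and 1 low array. The difference was 0.16 (95% confidence interval -0.78 to 1.10), with -0.20 without Rspo1-null array 2 and -0.19 without wild-type array 2.

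Rbm24, a regulator enriched in striated muscle, had 9.58 and 10.62 in the Rspo1-null arrays 1 and 2, against 10.32 and 9.75 in the wild-type arrays 1 and 2. Its genotype means, 10.10 ± 0.73 in the Rspo1-null arrays and 10.03 ± 0.40 in the wild-type arrays (SD, n = 2 each), lay closer together than the arrays of either genotype. The difference of 0.06 (95% confidence interval -1.02 to 1.15) turned to -0.021 after cyclic loess, to -0.45 without Rspo1-null array 2 and to -0.22 without wild-type array 2. Rbm20, which is best known for titin splicing in the heart, had 7.07 and 7.86 in the Rspo1-null arrays 1 and 2, against 8.23 and 7.32 in the wild-type arrays 1 and 2. Its difference was -0.31 (95% confidence interval -1.41 to 0.80), with 0.088 without Rspo1-null array 1 and 0.15 without wild-type array 1.

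**Figure D2:**
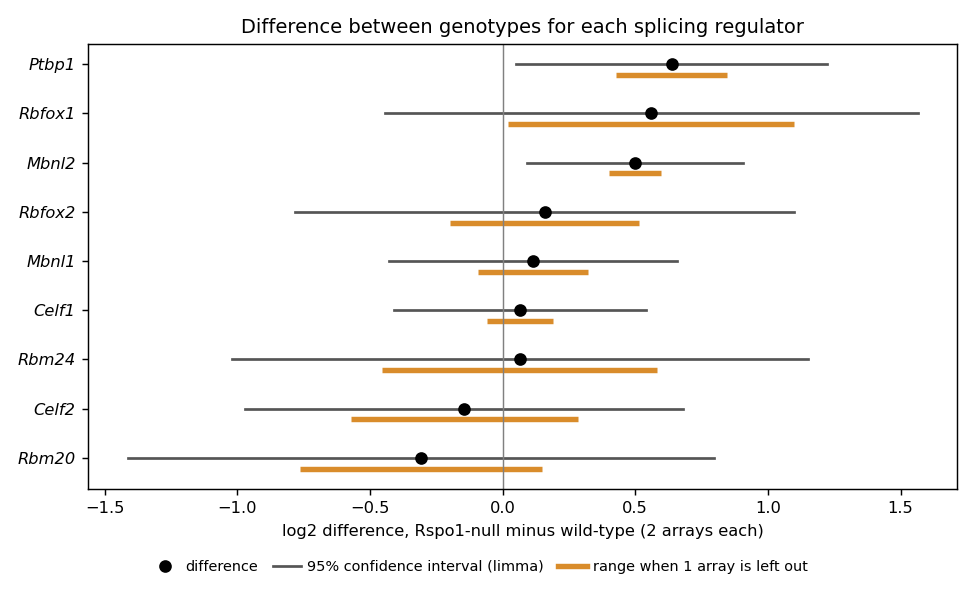
Log2 differences, Rspo1-null minus wild-type, of the 9 splicing regulators above background (points), with limma's 95% confidence intervals (grey) and the range when 1 array is left out (orange). The intervals of Ptbp1 (0.05 to 1.22) and Mbnl2 (0.09 to 0.90) lie above 0 and the other 7 include it.

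These intervals come from the fit without a block, with 2 arrays for each genotype. For Celf1 and Mbnl1 they exclude log2 differences beyond 0.66 in either direction. A change of 1 on the log2 scale lies inside the interval in at least 1 direction for Rbm24, Rbm20, Rbfox1, Rbfox2 and Ptbp1. Blocking by the array pairs of like sex-linked transcripts cannot change a difference, since each genotype holds 1 array of each pair. With that block the unadjusted p of Rbm20 (difference -0.31) was 0.102 from limma, against 0.499 without the block. A p above the threshold does not show that these genes were alike in both genotypes.

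Most of the spread of Rbm24, Rbm20 and Rbfox2 lay between arrays of the same genotype. Rbm24, Rbm20, Rbfox2, Celf1 and Celf2 were lower in both arrays with Xist (Rspo1-null array 1 and wild-type array 2) than in both arrays with Y-linked transcripts (Rspo1-null array 2 and wild-type array 1), and Mbnl1 was higher. These were 5 and 1 of the 9 regulators above background, and 20.8% and 27.3% of all 12272 genes above background parted the arrays in these ways. The arrays with Xist minus the others differed by -0.85 for Rbm20, -0.80 for Rbm24, -0.71 for Rbfox2, -0.46 for Celf2, -0.25 for Celf1 and 0.31 for Mbnl1. Ptbp1, Mbnl2 and Rbfox1 did not part the arrays in this way. This grouping crosses the genotype labels and holds 2 arrays on each side, so no test was made of it.

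Genes of muscle differentiation were low and high in the same arrays as Rbm24, Rbm20, Rbfox2, Celf1 and Celf2. For Myog, which encodes myogenin and drives terminal differentiation, the values were 9.96 and 11.70 in the Rspo1-null arrays 1 and 2, against 11.07 and 9.56 in the wild-type arrays 1 and 2. Those of Ckm, a creatine kinase of muscle, were 6.06 and 8.16 in the Rspo1-null arrays 1 and 2, against 8.92 and 5.55 in the wild-type arrays 1 and 2. All 14 genes of a differentiation list, which also holds Mymk, Myh3, Des and Tnni1, were lower in both arrays with Xist. Pax7, the factor of satellite cells, was higher in both, with 8.17 (Rspo1-null array 1) and 7.85 (wild-type array 2). Of 10 progenitor genes 5 were higher and 2 lower in both arrays with Xist. Among all genes above background 27.3% were higher and 20.8% lower in them. The sex of the donors and the stage of the cultures cannot be told apart in these arrays, and their part in the levels of the splicing regulators was not tested. Rspo1 did not overlap between the genotypes as labelled, whereas its values in the arrays with Xist, 5.29 (Rspo1-null array 1) and 5.84 (wild-type array 2), were the lowest and the highest of the 4. Exchanging the labels of these 2 arrays would still leave each genotype with 1 array with Xist and 1 with Y-linked transcripts, so that balance cannot speak to such an exchange. Exchanging an array with Xist of 1 genotype for an array with Y-linked transcripts of the other would put both arrays with Xist in 1 genotype. No exchange of labels was tested.

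**Figure D3:**
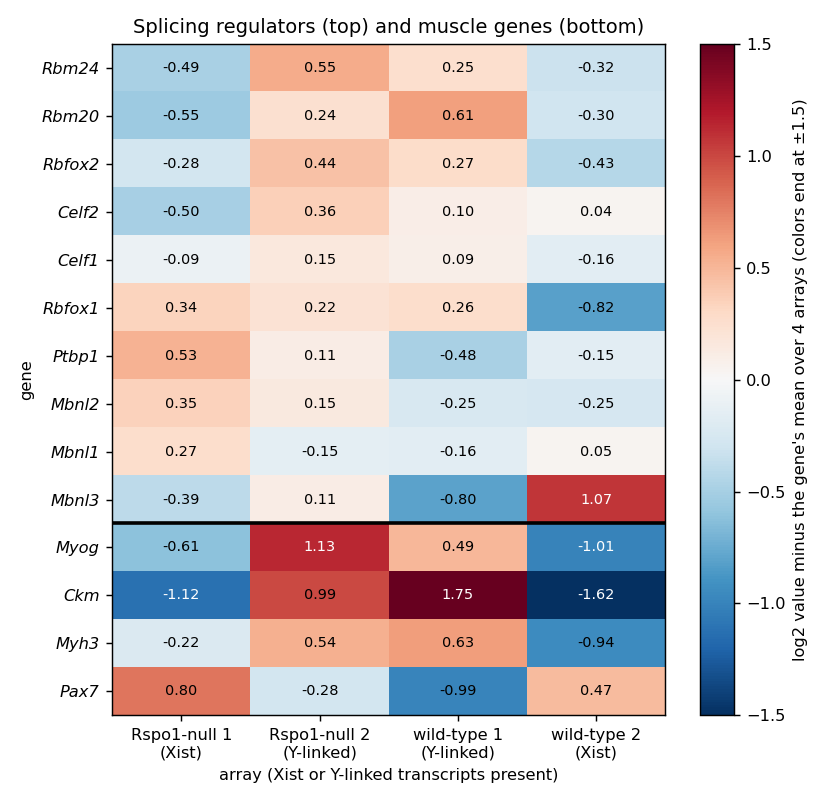
Log2 value of each gene minus its mean over the 4 arrays, with splicing regulators above the black line and the muscle genes Myog, Ckm, Myh3 and Pax7 below it; columns are arrays, each with the sex-linked transcripts it holds. Rbm24, Rbm20 and Rbfox2 are blue (low) in the same 2 arrays as Myog, Ckm and Myh3, while Ptbp1 and Mbnl2 are red (high) in both Rspo1-null arrays.

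The splicing regulators varied more among the arrays than most genes. The 9 regulators above background had a median range of 0.868 over the 4 arrays, against 0.504 for all 12272 genes above background. Rbm20 (1.16), Rbfox1 (1.16), Rbm24 (1.04) and Ptbp1 (1.01) had the widest ranges, at the 90.3rd, 90.2nd, 86.8th and 85.8th percentile of those genes. Mbnl1 (0.426) and Celf1 (0.313) lay below the median gene. The gene whose centered values lay nearest to those of Rbm20 over the 4 arrays was Tgfb2, a ligand of the TGF-beta family, at a root mean square distance of 0.0194, followed by Samd8 (0.0226), Pgap4 (0.028), Trp63 (0.0321) and Lmbrd2 (0.0463). Those nearest to Rbfox1 were Pcdh7 (0.108), Rpl36a (0.14), Sim2 (0.14), Prune2 (0.144) and Cdkn2c (0.15). Such likeness over 4 arrays is a description only.

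In 5 lists of other splicing genes, an unadjusted limma p under 0.05 was reached by 1 of 96 measured genes, and by 3.17% of all genes. Counts this small say nothing particular about any list. Of the 8 paralogs of the regulators 0 passed. Ptbp3, a close relative of Ptbp1, had 8.12 and 8.07 in the Rspo1-null arrays, against 7.86 and 7.79 in the wild-type arrays. Its difference was 0.27 (95% confidence interval -0.11 to 0.64). The groups did not overlap for 2 of the 8 paralogs, and for 31.2% of all genes. Ptbp3 was the 1 that was higher in Rspo1-null cells, and Celf4, which was dim, the 1 that was lower (-0.24). Ptbp2, the paralog that takes over from Ptbp1 in neurons, had a difference of 0.06. Rbm38, the paralog of Rbm24, had 8.45 and 9.74 in the Rspo1-null arrays 1 and 2, against 9.73 and 9.05 in the wild-type arrays 1 and 2. Like Rbm24, it was lower in both arrays with Xist.

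An unadjusted limma p under 0.05 was reached by 3.17% of all genes and by 3.67% of those above background. Of 12 serine/arginine-rich (SR) proteins, 28 other RNA-binding regulators and 26 core components of the spliceosome, 0 passed an unadjusted p of 0.05. Of 22 heterogeneous nuclear ribonucleoproteins (hnRNPs) and related proteins 1 passed it. This was Pcbp1, a poly(C)-binding protein, with 8.07 and 8.90 in the Rspo1-null arrays 1 and 2, against 7.61 and 7.68 in the wild-type arrays 1 and 2. Its difference was 0.84 (95% confidence interval 0.03 to 1.64, adjusted p = 0.999 from limma, unadjusted p = 0.0449). The median differences of these lists lay between -0.0038 (paralogs) and 0.05 (other regulators), against -0.03 for all genes and 0.03 for the genes above background, where 86 of the 96 lie. Across the arrays, both arrays with Xist held the higher values for 9 of the 22 hnRNPs and the lower ones for 0. Of the 12 SR proteins 6 were higher and 2 lower in them, and over the 12272 genes above background, as 11 of the SR proteins and all 22 hnRNPs were, the shares were 27.3% and 20.8%. Over all 24011 genes they were 19.8% and 22.2%.

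Of 26 genes whose transcripts are known to be spliced under the control of these regulators in muscle, 0 passed the unadjusted threshold, which 3.17% of all genes passed; at that share fewer than 1 of 26 would pass. Their median difference was 0.01, and -0.072 after cyclic loess. Ttn, which encodes titin, had 10.43 and 11.29 in the Rspo1-null arrays 1 and 2, against 11.38 and 10.80 in the wild-type arrays 1 and 2. Atp2a1, the calcium pump of fast muscle whose exon choice depends on Mbnl proteins, had 8.01 and 10.18 in the Rspo1-null arrays 1 and 2, against 10.22 and 7.87 in the wild-type arrays 1 and 2. In these genes the arrays of one genotype thus lay further apart than the genotypes. Of the 26 genes 15 were lower and 1 was higher in both arrays with Xist. Among all genes above background, as 25 of the 26 were, 20.8% were lower and 27.3% higher in them. All 14 genes of the differentiation list were lower in them too, and Mef2c is on both lists. Tpm1 (a tropomyosin) and Pkm (a pyruvate kinase with an exon that Ptbp1 represses) varied little, with ranges of 0.0688 and 0.0873 over the 4 arrays.

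**Figure D4:**
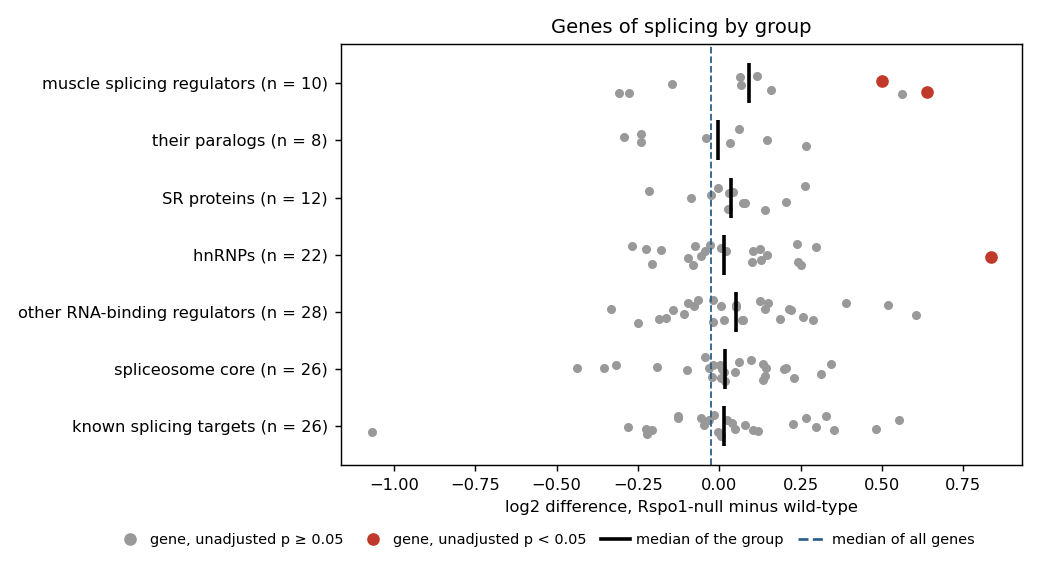
Log2 differences, Rspo1-null minus wild-type, of each gene in 7 groups, dim genes included (points; red, unadjusted limma p under 0.05), with the median of each group (black bar) and of all genes (dashed line, -0.03). Ptbp1 (0.64), Mbnl2 (0.50) and the hnRNP-related gene Pcbp1 (0.84) are the 3 genes in red.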

How the data were processed

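Gene expression was measured on 4 Affymetrix GeneChip arrays, 2 for each genotype. The authors deposited log2 values, 1 for each gene and array; RMA and Partek are named, with no version, in the submitters' processing notes, and R in the study's methods. RMA pulls the arrays to a common distribution, so differences are relative to all genes. The array medians lay between 4.62 and 4.70, and precision is limited by the number of arrays.

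Of 24973 rows, 24015 were named by the platform's table and 958 were not analysed here. For 4 symbols with several rows the highest row was kept. Rspo1-null minus wild-type was fitted without blocking (limma 3.58.1, R 4.3.3), p-values were adjusted over 24011 genes by Benjamini-Hochberg, and the fit was tested on simulated data. The alternatives were median centring, cyclic loess, an intensity trend, a filter on dim genes, replicate and sex blocks, the mean of rows, the methods' one-way ANOVA and leaving out each array. The members, the gene lists and the alternatives were chosen with earlier results of these data known. Beyond the 10 regulators, the text names list members past an unadjusted p of 0.05, cell type markers, nearest patterns and genes for context. Celf4, Ptbp2, Ptbp3, Rbm38, Ttn, Atp2a1, Tpm1 and Pkm were chosen after their values were seen.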

Additional observations from a re-analysis of the deposited data

How the results depend on the processing

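No gene passed an adjusted p of 0.05 in limma or in the methods' test under any of the 12 alternatives, against 760 at an unadjusted p in limma and 1139 in the methods' test. The 760 genes past an unadjusted p of 0.05 became 280 without the dim genes, 400 with the replicate block, 1284 with the sex block and 540 to 1711 when 1 array was left out, the highest without wild-type array 2. The 2 splicing regulators became 1 with cyclic loess, 1 without the dim genes, 1 in the methods' one-way comparison, 0 with the replicate block and 0 to 2 when 1 array was left out. The 1 gene of the other splicing lists became 0 with cyclic loess, 0 without the dim genes, 2 with the replicate block, 3 in the methods' comparison and 0 to 2 when 1 array was left out. Their causes were not tested. Fits without 1 array compare a single array with 2 and assume that it varies like the other genotype. The median difference of the regulators ranged from -0.13 to 0.34 when 1 array was left out. Ptbp1 and Mbnl2 kept their direction after median centring (0.69 and 0.55) and after cyclic loess (0.56 and 0.42). The other alternatives could not reverse it. The groups of both genes do not overlap, so leaving out 1 array cannot change the sign, and the remaining fits gave the same difference as the main fit. Rbfox1 ranged from 0.02 (without wild-type array 2) to 1.10 when 1 array was left out. Cyclic loess turned Rbm24 to -0.021. When 1 array was left out, the differences ranged from -0.20 to 0.52 (Rbfox2), -0.095 to 0.32 (Mbnl1), -0.059 to 0.19 (Celf1), -0.57 to 0.28 (Celf2), -0.45 to 0.58 (Rbm24), -0.76 to 0.15 (Rbm20) and, below background, -1.21 to 0.66 (Mbnl3). The labels do not say whether arrays with the same replicate number were processed together. Deviations of same-numbered arrays from their genotype means correlated at -0.36 across genes, which cannot show how they were processed. The sex block is the crossed pairing. With the sex block 1284 genes and 2 regulators, Ptbp1 and Mbnl2, passed the unadjusted threshold and 0 the adjusted one.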
